A study of Mus musculus with 2 samples.

Results

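The 10 genes described here (Stat3, Socs3, Bcl3, Cebpd, Edn2, Fgf2, Gfap, Serpina3n, Mt1 and Mt2) are genes known to respond to stress and gliosis in the retina. They were picked by name, with earlier results of these data known, out of the 32227 genes of the series. Their counts were read in 2 single-nucleus libraries from whole retinas of C57 BL/6J mice at postnatal day 21. The Cre- library came from animals without the Cre transgene, whose genotype the labels give as WT. The Tet tcKO library came from animals with floxed Tet1, Tet2 and Tet3 alleles and the Chx10-Cre-GFP transgene, which recombines in retinal progenitor cells and is mosaic. Each genotype was 1 library of retinas pooled over 2 dissociations, with more than 4 retinas in each pool. No difference below was therefore checked against replicates, and no test between genotypes was possible. Intervals are at 95% and cover counting error only.

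In the injured retina, cytokines of the interleukin-6 family bind receptors that share the subunit gp130. The JAK kinases then phosphorylate the transcription factor STAT3, and SOCS3, itself a STAT3 target, shuts the receptor down again. The same response is known for the intermediate filament GFAP in astrocytes and reactive Müller glia, for the ligands EDN2 and FGF2, and for the zinc-binding metallothioneins MT1 and MT2.

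Promoter windows are shown for the members that differed most and have a known response element, so that the elements can be seen beside the values. The sequences are RefSeq's, from 250 bases before to 50 bases after the RefSeq start site, and 9 of the 10 members had one (not Cebpd). The RefSeq table is on GRCm38.p6. Each window matched GRCm39 exactly at 1 place, and those positions are given. The windows of Socs3, Bcl3, Fgf2, Gfap and Mt2 lie wholly inside the GENCODE gene spans given below, which begin upstream of them. The core and CpG counts of these windows therefore hold for the RefSeq start only. Capitals mark the STAT core TTCNNNGAA in Socs3, and in Mt1 and Mt2 the cores of the metal response element, TGCACNC and TGCGCNC. Both strands were searched, and the marked matches did not overlap. The Socs3 window lies at chr11:117860143-117860442 on the minus strand, the Mt1 window at chr8:94905467-94905766 and the Mt2 window at chr8:94898996-94899295, both on the plus strand.
Socs3: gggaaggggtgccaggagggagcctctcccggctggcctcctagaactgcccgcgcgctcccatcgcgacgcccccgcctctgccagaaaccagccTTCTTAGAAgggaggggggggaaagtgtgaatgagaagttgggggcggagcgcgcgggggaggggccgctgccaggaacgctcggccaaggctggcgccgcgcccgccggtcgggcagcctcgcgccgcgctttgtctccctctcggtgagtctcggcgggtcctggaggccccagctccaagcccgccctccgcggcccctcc
Mt1: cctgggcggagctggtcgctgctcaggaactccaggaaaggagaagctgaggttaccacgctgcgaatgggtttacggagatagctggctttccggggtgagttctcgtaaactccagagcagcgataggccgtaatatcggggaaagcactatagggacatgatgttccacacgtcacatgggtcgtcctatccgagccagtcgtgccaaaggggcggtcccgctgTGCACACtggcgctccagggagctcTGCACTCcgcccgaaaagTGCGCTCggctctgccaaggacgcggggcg
Mt2: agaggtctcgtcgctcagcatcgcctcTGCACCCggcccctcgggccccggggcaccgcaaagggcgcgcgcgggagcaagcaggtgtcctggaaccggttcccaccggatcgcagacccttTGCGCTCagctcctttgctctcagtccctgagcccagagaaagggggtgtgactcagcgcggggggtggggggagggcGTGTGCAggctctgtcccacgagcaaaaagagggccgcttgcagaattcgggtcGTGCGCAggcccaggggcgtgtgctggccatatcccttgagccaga
The STAT core occurred 1 time in Socs3 and 1 time in Gfap, and 8.30% of 32851 promoter windows held it. The metal response cores occurred 3 times in Mt1 and 4 times in Mt2. Of all windows, 1.97% held 3 or more and 0.517% held 4 or more. Fgf2 held 2 such cores, and 7.11% of windows held 2 or more. The other members' windows held no core of either kind. The windows ranged widely in CpG dinucleotides, the substrate of DNA methylation. Socs3 had 31, Bcl3 26, and Fgf2, Mt1 and Mt2 24 each. Stat3 had 15, Edn2 6, and Gfap and Serpina3n 3 each, against a median of 7 over all windows. No methylation was measured in these libraries, and a match to a core is a description of the letters only.

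The Cre- library held 7357 nuclei and 11510585 UMIs (unique molecular identifiers, 1 per captured transcript), and the Tet tcKO library 6766 nuclei and 16590747 UMIs. The libraries stood apart in quality measures. The median was 1107 UMIs per nucleus in Cre- and 1836.5 in Tet tcKO, and the 13 mitochondrial genes held 5.47% and 1.76% of UMIs. They also differed in makeup by the authors' annotation. The Cre- library held 5214 rods and 265 cones, and the Tet tcKO library held 6 rods and 3225 cones. Rods and cones were therefore pooled for comparisons within photoreceptors, and what separates rods from cones cannot be told apart there from what separates the libraries. Only 1 cell barcode occurred in both libraries. Transcripts of the targeted genes, counted over whole genes and not by exon, had log2 ratios from -0.05 (Tet3) to 0.41 (Tet2) and so check neither the deletion nor the labels. Against marker lists, the 10 leading genes of no amacrine, retinal ganglion cell (RGC), horizontal or cone cluster held another class's markers in greater number than its own. This occurred in 2 of 14 rod, 4 of 9 bipolar and 1 of 3 Müller clusters. A cluster with no marker of any class among these genes also passed. Cone cluster 11, with 264 Cre- nuclei, and amacrine cluster 27 were such clusters. A pass is therefore no check of a name, and all class names below are the authors' annotation only. Annotated classes were also largely split by library over different clusters. Bipolar clusters 3, 4 and 7 held 202, 160 and 279 Cre- nuclei and 1, 0 and 5 Tet tcKO nuclei, and most Tet tcKO bipolar nuclei lay in clusters 22, 35, 39, 41, 42 and 43. Amacrine cluster 27 held 256 Cre- and 21 Tet tcKO nuclei, while clusters 12, 23 and 24 held most Tet tcKO ones. RGC cluster 8 held 394 Cre- and 29 Tet tcKO nuclei, and clusters 15 and 31 held 4 and 58 against 217 and 273. Values within a class therefore compare partly different clusters.

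Over all nuclei, Socs3 was higher in Tet tcKO, Edn2, Mt1 and Mt2 were lower, and the filament gene Gfap differed by less than its counting error. Levels are counts per 1000000 UMIs (CPM), and ratios are log2 of Tet tcKO over Cre-. Of the 10 members, 9 had 20 UMIs or more over both libraries, and Serpina3n did not. Among these 9, 1 was at least 2-fold higher in Tet tcKO, against 5.85% of the 18410 genes at the same minimum. At least 2-fold lower were 3 of 9, against 4.11% of genes. The members' median log2 ratio was -0.50, and that of all genes was 0.14. Pooled rods and cones had 8 members with 20 UMIs or more. There 1 of 8 was at least 2-fold higher, against 8.47% of 16455 genes, and 3 of 8 were at least 2-fold lower, against 4.23%. The same 4 genes, Socs3, Edn2, Mt1 and Mt2, were past 2-fold in both populations. The median of the 8 was 0.02 and that of all genes 0.21.

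**Figure D1:**
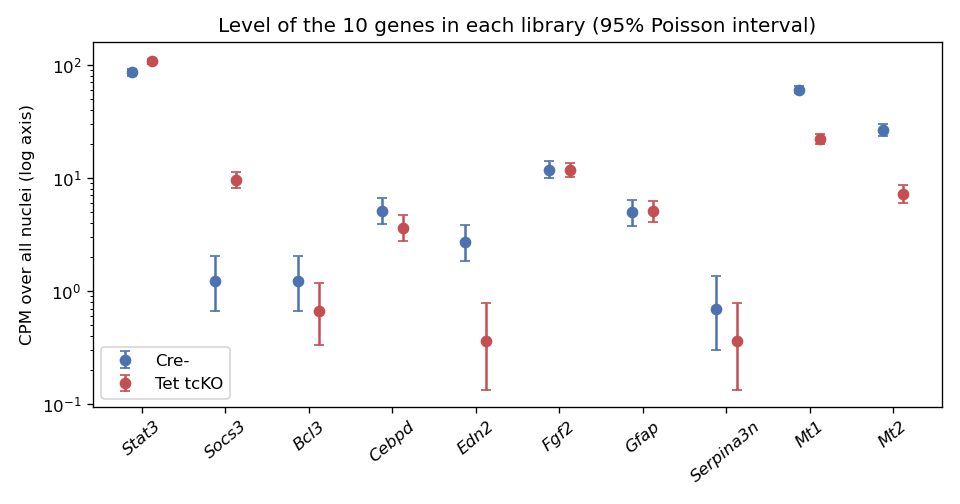
Level of each member over all nuclei, in CPM on a log axis, in the Cre- (blue) and Tet tcKO (red) libraries, 1 library each. Points are summed UMIs per 1000000 and bars are 95% Poisson intervals. Socs3 stood at 1.22 CPM in Cre- against 9.64 CPM in Tet tcKO, while Mt1 stood at 60.1 and 22.2 CPM.

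**Figure D2:**
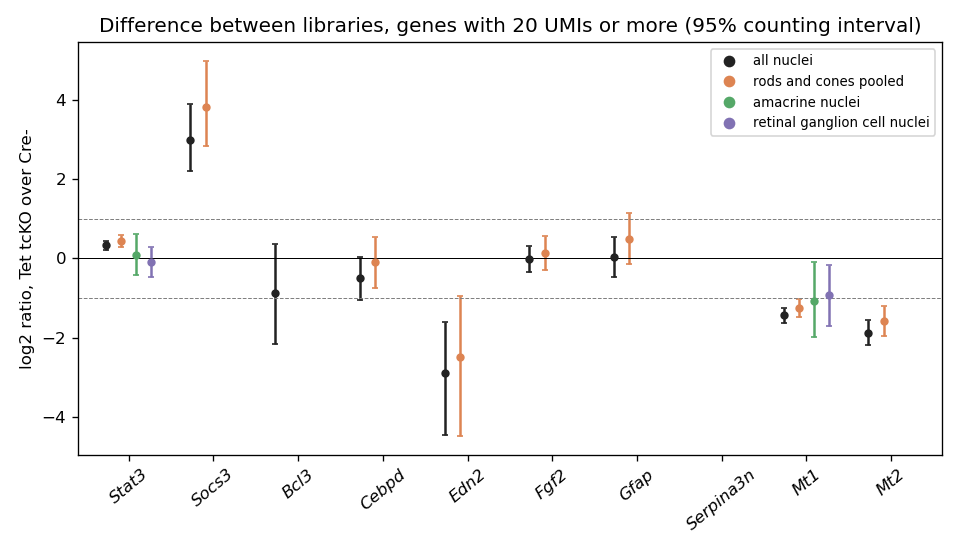
Log2 ratio of Tet tcKO over Cre- for each member with 20 UMIs or more in the population, over all nuclei, rods and cones pooled, amacrine nuclei and RGC nuclei. Bars are 95% counting intervals and dashed lines mark 2-fold. Socs3 lies above the upper line, Edn2, Mt1 and Mt2 lie below the lower line over all nuclei, and Serpina3n has no point.

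Socs3 encodes the inhibitor that binds gp130 receptors and JAK kinases. It lies on chromosome 11 from 117856905 to 117860898 on the minus strand (GRCm39, GENCODE vM39), with 2 exons. The Cre- library held 14 Socs3 UMIs in 14 nuclei, or 1.22 CPM (0.665 to 2.04). The Tet tcKO library held 160 in 159 nuclei, or 9.64 CPM (8.21 to 11.3). The intervals did not overlap. The log2 ratio was 2.99 (2.20 to 3.89).

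The Socs3 ratio was past 2-fold in photoreceptors as well. In rods and cones pooled, Socs3 stood at 1.19 CPM (9 UMIs) in Cre- against 16.6 CPM (123 UMIs) in Tet tcKO, giving a log2 ratio of 3.81 (2.83 to 4.97). Cone-annotated nuclei carried 76.9% of the Tet tcKO Socs3 UMIs. Within that library, the level in cones was above the 4.03 CPM of nuclei that were neither rods nor cones, at a log2 difference of 2.04 (1.503 to 2.62). Among Cre- nuclei, rods stood at 0.917 CPM and nuclei outside the photoreceptor classes at 1.27 CPM, a log2 difference of -0.47 (-2.45 to 1.58). The order of the Tet tcKO classes from high to low was cones (16.6 CPM), Müller (13.4 CPM, from 2 UMIs), bipolar (5.40 CPM), amacrine (3.41 CPM) and RGC (1.41 CPM). Cones and bipolar nuclei differed beyond their intervals, and bipolar, amacrine and RGC nuclei did not. Müller nuclei did not differ from any of these beyond their interval.

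The Socs3 signal was spread over the cone clusters rather than held by 1 of them. All 8 Tet tcKO cone clusters carried it, from 8.54 CPM in cluster 50 to 21.2 CPM in cluster 48. The Cre- rod clusters ranged from 0, in 8 of 14 clusters, to 4.81 CPM in cluster 36, which rested on 1 UMI. Cre- cones, all but 1 of them in cluster 11, stood at 2.91 CPM from 3 UMIs. The lowest Tet tcKO cone cluster was thus above the highest Cre- photoreceptor cluster, although the intervals of single clusters overlapped.

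**Figure D3:**
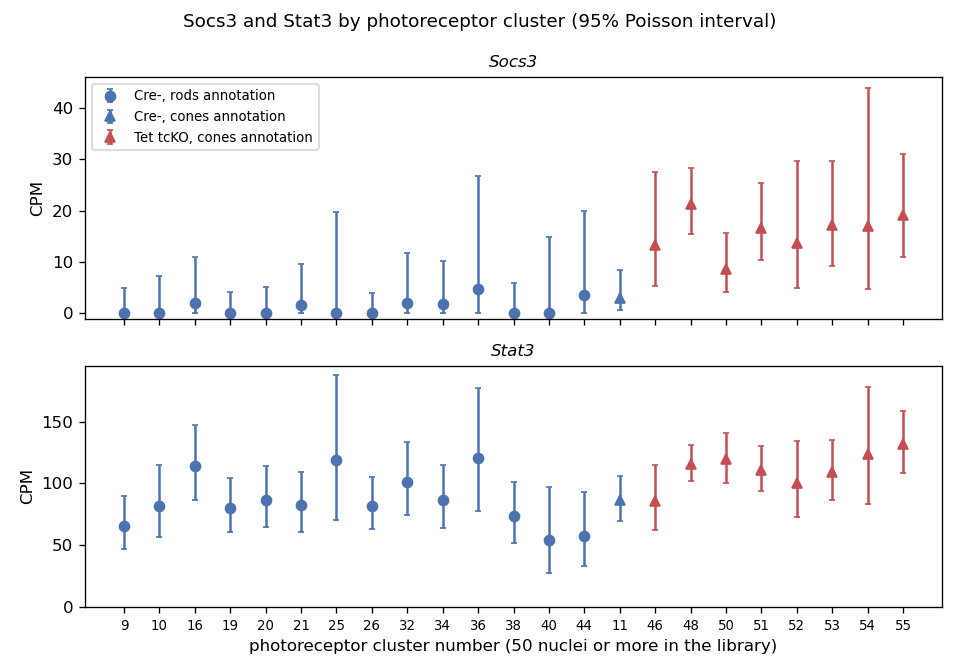
Level of Socs3 (top) and Stat3 (bottom) in CPM in each photoreceptor cluster with 50 nuclei or more in a library, by the authors' cluster number. Blue marks Cre-, red Tet tcKO, circles rods and triangles cones, and bars are 95% Poisson intervals. Socs3 is at 8.54 to 21.2 CPM in the 8 Tet tcKO clusters and at 0 to 4.81 CPM in the Cre- clusters, while the Stat3 levels of the libraries overlap.

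Nearly all positive nuclei held a single Socs3 UMI. Without thinning, 3.78% (3.15 to 4.50) of Tet tcKO cones had a UMI, against 0.767% (0.332 to 1.51) of amacrine nuclei of the same library, a class taken as background, at median depths of 1715 and 1736 UMIs. With every nucleus thinned to 500 UMIs, the shares were 0.806% (0.527 to 1.18) and 0.0959% (0.00243 to 0.533). Cre- rods, at a median depth of 1025.5 UMIs, had a UMI in 0.115% (0.0422 to 0.250) of nuclei unthinned and 0.0575% (0.0119 to 0.168) thinned. In 403 Cre- amacrine nuclei none had a UMI unthinned, a limit of 0.744% at 3 counts and of 0.911% by the exact interval. Among nuclei whose deposited mitochondrial percent was between 5 and 8 in both libraries, the Socs3 log2 ratio was 4.08 (2.69 to 5.98), from 4 Cre- UMIs. For rods and cones pooled it was 4.91 (2.40 to 10.2) there, from 1 Cre- UMI. Between 8 and 12% the levels were closer, at 1.91 CPM (0.767 to 3.93; 7 UMIs) in Cre- against 7.17 CPM (2.88 to 14.8; 7 UMIs) in Tet tcKO, and the intervals overlapped. In rods and cones pooled they were 1.70 CPM (0.625 to 3.70) and 7.66 CPM (3.08 to 15.8) there. Within Tet tcKO, Socs3 stood at 4.16 CPM (2.88 to 5.81) in nuclei below 5% and 15.9 CPM (13.2 to 19.1) between 5 and 8%. These bins differed in makeup, with photoreceptors 191 of 2982 nuclei in the first and 2437 of 3136 in the second. In Tet tcKO photoreceptors alone Socs3 stood at 10.3 CPM (2.82 to 26.5; 4 UMIs) and 18.3 CPM (15.0 to 22.0), with overlapping intervals. The part of the mitochondrial percent in the Socs3 difference was not tested.

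Stat3 encodes the transcription factor of this pathway. It lies on chromosome 11 from 100775924 to 100830450 on the minus strand, with 24 exons, and Stat5a overlaps it on the other strand (86 and 181 UMIs). Stat3 stood at 85.3 CPM (80.1 to 90.8; 982 UMIs) in Cre- against 107.0 CPM (102 to 112; 1775 UMIs) in Tet tcKO. The log2 ratio was 0.33 (0.21 to 0.44), under 2-fold.

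By class, Stat3 differed by less than 2-fold in photoreceptors, bipolar-annotated, amacrine and RGC nuclei. In rods and cones pooled it stood at 84.7 and 114 CPM, giving a log2 ratio of 0.42 (0.27 to 0.57). That ratio was 0.23 under TMM scaling, which centres the ratios of most genes on 0. Bipolar-annotated nuclei stood at 99.7 CPM (85.5 to 116) and 128 CPM (118 to 139). In amacrine nuclei the log2 ratio was 0.08 (-0.41 to 0.61) and in RGCs -0.10 (-0.48 to 0.29). Horizontal nuclei stood at 44.2 CPM (17.8 to 91.1; 7 UMIs) and 90.1 CPM (43.2 to 166; 10 UMIs), with overlapping intervals. Cluster levels overlapped, with 54.2 to 120 CPM over the 14 Cre- rod clusters and 85.6 to 131 CPM over the 8 Tet tcKO cone clusters. Tet tcKO cones with a Socs3 UMI stood at 104 CPM (75.2 to 140) of Stat3 and those without at 114 CPM (107 to 123), so positive nuclei did not differ in Stat3 beyond counting error. This comparison was chosen after values were seen, and positive nuclei were deeper, at 2492 against 1692 UMIs.

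The rest of the gp130 and JAK-STAT pathway was read from a list of 30 other genes. Of the 27 at 20 UMIs or more, 4 were at least 2-fold higher in Tet tcKO, none was lower, and the median was 0.32. Over all genes, 5.85% were higher and 4.11% lower, with a median of 0.14. The cytokine gene Clcf1 stood at 2.00 CPM in Cre- against 5.36 CPM in Tet tcKO, giving a log2 ratio of 1.42 (0.75 to 2.15). Osmr, the receptor subunit for oncostatin M, stood at 4.34 and 9.10 CPM, giving a log2 ratio of 1.07 (0.60 to 1.56). The other two, named after their values were seen, were the cytokine gene Cntf, at 1.82 and 4.22 CPM, and Socs1, a second inhibitor of JAK kinases, at 0.348 and 1.15 CPM. The pooled rods and cones had 3 of 25 higher and none lower, against 8.47% and 4.23% of all genes, whose median there was 0.21. These shares and medians of all genes are also the background for the gene and marker lists below.

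Bcl3 and Cebpd encode transcription factors of the acute response, BCL3 as a partner of NF-kB subunits and CEBPD as a member of the C/EBP family. Bcl3, on chromosome 7 from 19541553 to 19557570, yielded 14 UMIs (1.22 CPM) in Cre- against 11 (0.663 CPM) in Tet tcKO. Its log2 ratio of -0.88 had an interval of -2.16 to 0.37. No class held more than 7 of its UMIs in either library. Cebpd had 59 UMIs (5.13 CPM) and 60 UMIs (3.62 CPM), giving a log2 ratio of -0.50 (-1.05 to 0.04). In rods and cones pooled the ratio was -0.10 (-0.75 to 0.54). The intervals of both genes over all nuclei held 0. With the Cre- class shares in both libraries, Bcl3 joined the members at least 2-fold lower, at a log2 ratio of -1.03, which rests on 14 and 11 UMIs. Cebpd lies on chromosome 16 from 15705150 to 15708895 inside Spidr, which runs on the other strand and had 23460 and 13773 UMIs. The sources used here do not give whether counting used the strand, and the part of Spidr in the Cebpd counts was not tested.

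Within the Tet tcKO library, Cebpd was higher in cones. They stood at 5.54 CPM and nuclei that were neither rods nor cones at 2.07 CPM, a log2 difference of 1.42 (0.60 to 2.29). In Cre- rods the difference from such nuclei was 0.63 (-0.30 to 1.63). Of the NF-kB family and its inhibitors, 1 of 10 genes at the minimum was at least 2-fold higher, 0 were lower, and the median was 0.17. That gene was Nfkb1, which encodes the p50 precursor, at 82.4 and 224 CPM and a log2 ratio of 1.44 (1.34 to 1.55). Nfkb2 stood at 5.99 and 3.92 CPM (log2 ratio -0.61, interval -1.12 to -0.10). Of 3 C/EBP family genes none was past 2-fold in either direction, with a median of 0.10.

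Edn2 and Fgf2 encode secreted ligands. Edn2, on chromosome 4 from 120018403 to 120024557, encodes an endothelin that photoreceptors are known to release under stress. It had 31 UMIs (2.69 CPM, 1.83 to 3.82) in Cre- and 6 UMIs (0.362 CPM, 0.133 to 0.787) in Tet tcKO. The intervals did not overlap, and the log2 ratio was -2.90 (-4.45 to -1.61). Rods held 20 of the Cre- UMIs, bipolar-annotated nuclei 7, cones 3 and amacrine nuclei 1, while the Tet tcKO UMIs were 4 in cones and 2 in bipolar-annotated nuclei. Cre- rods did not stand above nuclei outside the photoreceptor classes beyond counting error, at 3.06 and 2.03 CPM, a log2 difference of 0.59 (-0.66 to 1.98). At 500 UMIs per nucleus, 0.230% (0.119 to 0.402) of Cre- rods and 0.248% (0.00628 to 1.37) of Cre- amacrine nuclei, taken as background, had an Edn2 UMI. The amacrine share rests on 1 of 403 nuclei, too few to place the rod share against it. The median depths were 1025.5 and 1065 UMIs, and unthinned the shares were 0.384% and 0.248%. Cre- RGCs had no Edn2 UMI, a limit of 2.44 CPM at 3 counts, which overlapped the interval of rods (1.87 to 4.72). In rods and cones pooled the log2 ratio was -2.49 (-4.48 to -0.94). Between 5 and 8% mitochondrial transcripts, where 12 UMIs remained in Cre- and 4 in Tet tcKO, the ratio over all nuclei was -2.38 (-4.46 to -0.65). For rods and cones pooled, with 5 and 4 UMIs there, it was -2.19 (-4.52 to 0.03), and the interval held 0.

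Among 6 other endothelin pathway genes, 5 passed the minimum, none was past 2-fold and the median was 0.28. Ece1, the enzyme that cleaves the precursor, stood at 39.7 and 71.0 CPM, giving a log2 ratio of 0.84 (0.68 to 1.00). Pooled photoreceptors had 2 of 5 at least 2-fold higher and 0 lower.

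Fgf2, a fibroblast growth factor known to protect photoreceptors, lies on chromosome 3 from 37402473 to 37464257. It had 136 UMIs (11.8 CPM, 9.91 to 14.0) in Cre- and 194 UMIs (11.7 CPM, 10.1 to 13.5) in Tet tcKO. The log2 ratio of -0.01 lay between -0.34 and 0.31, and in rods and cones pooled 0.14 lay between -0.28 and 0.56. A 2-fold difference thus fell outside both intervals. Nudt6 and Fgf2os overlap the locus on the other strand, with 59 and 13 UMIs in Cre- and 142 and 31 in Tet tcKO. Fgf2 was highest in Müller-annotated nuclei, at 36.0 CPM (15.5 to 70.9; 8 UMIs) in Cre- against 20.1 CPM (4.15 to 58.8; 3 UMIs) in Tet tcKO. The Cre- interval lay above those of rods (9.83 to 15.4) and RGCs (3.35 to 13.9) and overlapped those of the other classes.

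Of 20 other FGF pathway genes, 19 passed the minimum, 1 was at least 2-fold higher, none lower, and the median was 0.27. The gene past 2-fold was Fgf14, a cytoplasmic family member that binds sodium channels, at 455 and 963 CPM (log2 ratio 1.08, 1.04 to 1.13). The 6 listed feedback inhibitors of FGF signalling differed in both directions. Dusp6 stood at 3.65 and 6.99 CPM, Spry1 at 3.301 and 5.61 CPM, and Spred1 at 31.4 and 50.0 CPM. Spry2 stood at 20.7 and 15.3 CPM (log2 ratio -0.43, -0.69 to -0.17), and the log2 ratios of Spry4 and Spred2 were 0.03 and 0.09. Spry2, Spry4 and Spred2 were named after their values were seen. Among pooled photoreceptors, 2 of 19 were at least 2-fold higher and 0 lower.

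Gfap and Serpina3n are the classic reactive glia genes of the set, GFAP the filament of astrocytes and SERPINA3N a secreted protease inhibitor. Gfap lies on chromosome 11 from 102778159 to 102791738. It had 57 UMIs (4.95 CPM, 3.75 to 6.42) in Cre- and 84 UMIs (5.06 CPM, 4.04 to 6.27) in Tet tcKO. The log2 ratio of 0.03 lay between -0.47 and 0.54, and that in rods and cones pooled, 0.50, between -0.14 and 1.15. Over all nuclei, a 2-fold difference in either direction lay outside the interval. In photoreceptors a 2-fold increase lay inside it.

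Most Gfap UMIs did not come from glia-annotated nuclei. Müller-annotated nuclei held 2 of the 57 in Cre- and 1 of the 84 in Tet tcKO. Rods held 36 of the Cre- UMIs and cones 51 of the Tet tcKO UMIs, each nearly always as 1 UMI per nucleus. At 500 UMIs per nucleus, 0.230% (0.119 to 0.402) of Cre- rods and 0.310% (0.149 to 0.570) of Tet tcKO cones had a UMI. Amacrine nuclei, taken as background, had one in 0.248% (0.00628 to 1.37) and 0.192% (0.0232 to 0.691). These amacrine shares rest on 1 and 2 nuclei, too few to place the rod and cone shares against them. In CPM, Tet tcKO cones stood at 6.89 and nuclei outside the photoreceptor classes at 3.59, a log2 difference of 0.94 (0.28 to 1.62), while in Cre- rods it was 0.11 (-0.71 to 0.98). Unthinned, the shares were 0.690% of Cre- rods and 1.55% of Tet tcKO cones, against 0.993% and 0.671% of amacrine nuclei. Only 4 nuclei held 2 or more Gfap UMIs, and these were examined after their values were seen. Both of the Cre- ones lay in cluster 39, annotated as bipolar, and were its only Cre- nuclei. They held 4 and 2 Gfap UMIs of 882 and 2167 in all, with 2 and 5 UMIs of Pax2, a transcription factor of retinal astrocytes. Of the Tet tcKO ones, the nucleus with 3 Gfap UMIs also lay in cluster 39, with 0 Pax2 UMIs and 31 UMIs of Müller markers, and the other was a cone-annotated nucleus in cluster 48 with 2 Gfap UMIs. Pax2 was among the 10 leading genes of cluster 39 as a whole, which held 409 Tet tcKO nuclei. It therefore does not by itself name the nuclei there astrocytes.

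Serpina3n, on chromosome 12 from 104372810 to 104380597, yielded 8 UMIs in Cre- and 6 in Tet tcKO, too few for a comparison. The Tet tcKO UMIs were all in cones. None of its 9 paralogs in the files reached 20 UMIs, and Serpina3a, Serpina3j and Serpina3k were at 0 in both libraries.

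The cells in which these genes are known best were few. Müller annotations covered 144 Cre- and 102 Tet tcKO nuclei, and their levels of a Müller marker list were read. The authors annotated clusters by marker genes, so these levels are a description and no check of the name. In each library, 9 of 12 markers were above the other nuclei with an interval clear of 0, at a median log2 difference of 1.68 in Cre- and 2.18 in Tet tcKO. The 2 libraries shared only cluster 30 in numbers, with 43 and 46 nuclei, since cluster 14 held 99 Cre- nuclei alone and cluster 37 held 2 and 56. Cluster 30 was also the Müller cluster whose 10 leading genes held another class's markers in greater number than its own (1 against 0). In cluster 30, Stat3 stood at 115 CPM (37.4 to 269) and 133 CPM (61.0 to 253) and Gfap had 0 and 1 UMIs. In cluster 14, Stat3 stood at 109 CPM and Gfap had 2 UMIs, and in cluster 37 of Tet tcKO Stat3 stood at 147 CPM with no Gfap UMI, which allows up to 36.7 CPM. No member could be compared in these nuclei beyond counting error. All 6 astrocyte markers passed the minimum and none was past 2-fold, with a summed level of 52.4 CPM in Cre- against 66.5 CPM in Tet tcKO. Igfbp5 stood at 14.4 and 27.7 CPM. The other astrocyte markers had log2 ratios from -0.57 (Aldh1l1) to 0.38 (Pax2), both named after their values were seen.

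**Figure D4:**
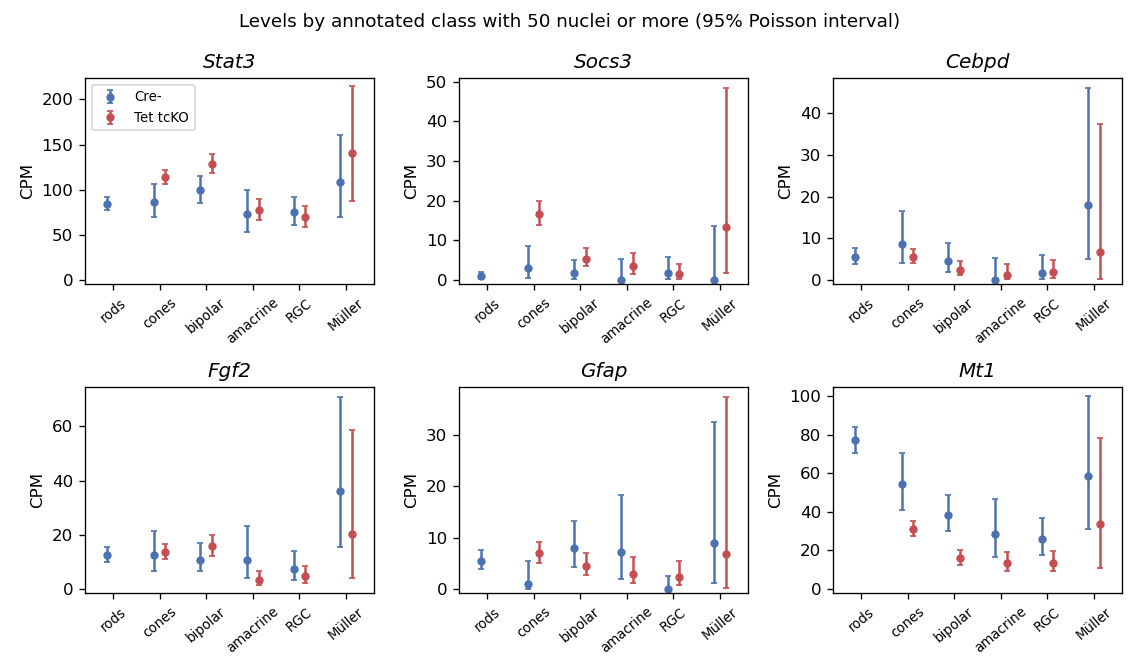
Level of 6 members in CPM by annotated class, in classes with 50 nuclei or more, in the Cre- (blue) and Tet tcKO (red) libraries. Bars are 95% Poisson intervals. Tet tcKO cones stand at 16.6 CPM of Socs3, the Mt1 point of Tet tcKO is the lower in each class shown for both libraries, and the Müller intervals are wide.

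Other reactive glia and stress genes differed in both directions. Of 28 listed, 23 passed the minimum, 5 were at least 2-fold higher, 5 at least 2-fold lower, and the median was -0.24. Higher were Tnc, an extracellular matrix gene (14.9 and 72.4 CPM, log2 ratio 2.28, 2.04 to 2.52), Cd44, the hyaluronan receptor (4.34 and 10.9 CPM), Txnip, an inhibitor of thioredoxin (4.604 and 10.8 CPM), Osmr, and the chaperone gene Hspa5 (44.4 and 92.8 CPM). Lower were the crystallin and small heat shock gene Cryab (18.6 and 6.93 CPM, log2 ratio -1.42, -1.76 to -1.09), the complement genes C4b (5.30 and 2.47 CPM) and C3 (2.95 and 0.603 CPM), the filament gene Nes (3.301 and 1.15 CPM) and Lcn2 (1.30 and 0.422 CPM). Hspa5, C3, Nes and Lcn2 were named after their values were seen. Pooling rods and cones alone, 6 of 21 were higher and 3 lower.

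Mt1 and Mt2 encode the metallothioneins, small cysteine-rich proteins that bind zinc and copper and are induced by metals and oxidative stress. They are neighbours on chromosome 8, Mt2 from 94898819 to 94900207 and Mt1 from 94905710 to 94906955, both on the plus strand. Mt1 stood at 60.1 CPM (55.7 to 64.8; 692 UMIs) in Cre- against 22.2 CPM (19.97 to 24.6; 368 UMIs) in Tet tcKO, giving a log2 ratio of -1.44 (-1.62 to -1.25). Mt2 stood at 26.5 CPM (23.6 to 29.6; 305 UMIs) and 7.23 CPM (6.00 to 8.65; 120 UMIs), giving a log2 ratio of -1.87 (-2.19 to -1.56). Neither pair of intervals overlapped.

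By class, the metallothionein differences varied in size and in support. In rods and cones pooled, Mt1 stood at 74.0 and 31.2 CPM (log2 ratio -1.25, -1.48 to -1.02) and Mt2 at 31.0 and 10.4 CPM (-1.58, -1.97 to -1.20). This sets mostly Cre- rods against Tet tcKO cones. Cones alone stood closer, at 54.3 CPM (41.0 to 70.5) and 31.2 CPM (27.3 to 35.5) of Mt1 and at 17.5 CPM (10.3 to 27.6) and 10.4 CPM (8.21 to 13.0) of Mt2, both under 2-fold, and the Mt2 intervals overlapped. In amacrine nuclei Mt1 stood at 28.6 and 13.7 CPM (-1.07, -1.98 to -0.10; -0.97 without the nucleus with the most Mt1 UMIs) and in RGCs at 26.0 and 13.6 CPM (-0.94, -1.71 to -0.16). Bipolar-annotated nuclei stood at 38.5 CPM (29.9 to 48.8) and 16.0 CPM (12.5 to 20.1). Within each library photoreceptors were the higher. Cre- rods were above nuclei outside the photoreceptor classes by a log2 difference of 1.21 (0.93 to 1.501) for Mt1 and 0.90 (0.50 to 1.31) for Mt2, and Tet tcKO cones by 1.06 (0.75 to 1.38) and 1.15 (0.59 to 1.72). Single classes did not all follow. Horizontal nuclei stood at 25.3 CPM (6.88 to 64.7; 4 UMIs) and 45.0 CPM (14.6 to 105; 5 UMIs) of Mt2, the latter above Tet tcKO cones. Their Mt1 had 2 and 0 UMIs. Cre- cones, at 17.5 CPM of Mt2, lay below Cre- bipolar-annotated nuclei at 24.9 CPM (18.1 to 33.5), with overlapping intervals. With the Cre- class shares in both libraries, the ratios over all nuclei were -1.18 for Mt1 and -1.53 for Mt2.

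Among photoreceptors, the Mt1 level moved with the mitochondrial percent of the nuclei. The authors deposited this percent, and its medians over all nuclei were 9.52% in Cre- and 5.38% in Tet tcKO. Among Cre- photoreceptors, Mt1 stood at 43.8 CPM (34.3 to 55.2) between 5 and 8%, 69.8 CPM (61.3 to 79.1) between 8 and 12%, and 101 CPM (88.6 to 114) between 12 and 20%. Among Tet tcKO photoreceptors it stood at 5.17 CPM (0.626 to 18.7) below 5%, 31.5 CPM (27.2 to 36.4) between 5 and 8%, and 39.4 CPM (27.6 to 54.5) between 8 and 12%. Mt2 ranged less in Cre- photoreceptors, from 25.6 CPM (18.4 to 34.6) to 34.2 CPM (27.2 to 42.4) over the same bins, with overlapping intervals. In Tet tcKO photoreceptors it stood at 7.76 CPM (1.60 to 22.7), 9.46 CPM (7.17 to 12.3) and 16.4 CPM (9.19 to 27.1), again overlapping. With only nuclei between 5 and 8% in both libraries, the ratio over all nuclei was -0.39 (-0.68 to -0.09) for Mt1, no longer 2-fold, and -1.23 (-1.71 to -0.76) for Mt2, still past 2-fold. In amacrine and RGC nuclei the window held few UMIs, and no Mt1 difference was detectable. Mt1 stood at 37.1 and 20.7 CPM in amacrine nuclei (12 and 5 UMIs, log2 ratio -0.85, -2.70 to 0.76) and at 23.4 and 34.9 CPM in RGCs (11 and 4 UMIs, 0.58, -1.53 to 2.33). Amacrine Mt2 stood at 15.5 and 16.5 CPM (0.10, -2.24 to 2.31). Over all nuclei in the window, the members at least 2-fold lower numbered 1 of 7, against 4.43% of 15809 genes, with Edn2 under the minimum. At least 2-fold higher was 1 of 7, against 11.3% of genes. The median of the 7 members tested was 0.14 and that of all genes in the window 0.22. This window was chosen after the data were seen. The part of the mitochondrial share, of depth or of cytoplasmic RNA in the metallothionein difference was not tested. Both genes are short, and of the 443 genes shorter than 2000 bases 10.4% were at least 2-fold lower and 9.71% at least 2-fold higher, with a median of 0.04. Ribosomal protein genes, whose transcripts are mostly cytoplasmic, summed to 9316 CPM in Cre- against 6771 CPM in Tet tcKO.

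**Figure D5:**
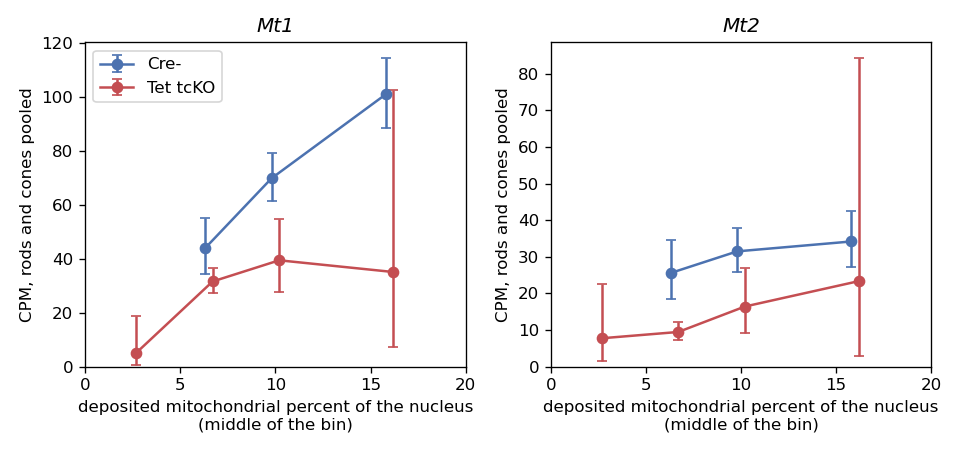
Level of Mt1 (left) and Mt2 (right) in CPM against the deposited mitochondrial percent of the nucleus, in rods and cones pooled, for bins with 50 nuclei or more in Cre- (blue) and Tet tcKO (red). Bars are 95% Poisson intervals. Mt1 goes from 43.8 to 101 CPM over the Cre- bins, and at 5 to 8% the libraries stand at 43.8 and 31.5 CPM of Mt1 and 25.6 and 9.46 CPM of Mt2.

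Of 16 other genes for metallothioneins and zinc handling, 15 passed the minimum, none was past 2-fold and the median was 0.59. Mt3, the brain-type metallothionein, stood at 13.6 and 8.08 CPM, giving a log2 ratio of -0.75 (-1.09 to -0.40). Mtf1, the zinc-sensing factor that binds the metal response element, stood at 35.7 and 35.0 CPM (log2 ratio -0.03, -0.21 to 0.16). The zinc transporter genes at the minimum had log2 ratios from -0.12 (Slc39a10) to 0.91 (Slc39a1), with Slc30a9 at 0.04 and Slc30a7 at 0.24 (these and Slc39a10 were named after their values were seen). The 4 furthest apart were Slc39a1 at 4.43 and 8.32 CPM, Slc30a10 at 5.39 and 9.52 CPM, Slc30a4 at 9.64 and 16.5 CPM and Slc30a1 at 6.78 and 11.03 CPM. Photoreceptors pooled had 3 of 15 at least 2-fold higher and none lower.

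Markers of other cells moved with these values as follows. Of 8 microglia markers at the minimum, 3 were at least 2-fold higher (P2ry12, C1qc and Aif1), and the summed level was 50.1 CPM in Cre- against 65.7 CPM in Tet tcKO. Of 7 endothelial markers, Flt1 alone was at least 2-fold lower (125 and 40.0 CPM), with sums of 244 and 168 CPM. The other endothelial markers had log2 ratios from -0.45 (Tek) to 0.34 (Kdr), both named after their values were seen. Flt1 was also among the 10 leading genes of Müller clusters 14 and 30. None of the 3 pericyte markers at the minimum was past 2-fold (25.6 and 18.6 CPM), and of 5 pigment epithelium markers Ttr was lower (67.5 and 60.9 CPM). Over all nuclei, 6 of 10 rod markers were lower, and 7 of 9 cone markers were higher and 1 lower. Of 12 Müller markers, 1 was higher and 3 lower. Among bipolar markers 1 of 10 was higher and 3 lower, among amacrine markers 1 of 9 higher, among RGC markers 1 of 9 lower, and among horizontal markers 1 of 7 lower. The part of these cells in the members' differences was not tested.

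The genes whose levels followed the members most closely were found by Pearson's r of log2(CPM + 5) over the 12 classes by library with 50 nuclei or more, among 13665 genes with 100 UMIs or more. The points share libraries and depth, so these values are descriptions. Socs3 was most like Bambi (0.95), Gm16075 (0.92) and Chmp4c (0.92), and Stat3 most like Limch1 (0.96), Mapk4 (0.96) and Lrp2 (0.95). Cebpd was most like Lfng (0.95), C4b (0.94) and Abhd17b (0.94), Fgf2 most like Nfkbiz (0.97), Col18a1 (0.94) and Fxyd1 (0.94), and Gfap most like Zmat2 (0.92), Mrpl35 (0.91) and Atrip (0.90). Mt1 was most like Ptpru (0.94), Mapre3 (0.94) and 2810030D12Rik (0.94), and Mt2 most like Sebox (0.95), Myo3a (0.95) and Retn (0.95).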

How the data were processed

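Nuclei were captured with a PIPseq kit (v4.0) that reads 3′ ends, and the authors processed reads with pipseeker (v3.3.0), aligned them to GRCm39, removed ambient RNA with CellBender and filtered nuclei in Monocle3. In the deposited matrices each value is a UMI count of 1 gene in 1 nucleus. The deposited cell tables give the authors' mitochondrial percent per nucleus, for which the sources used here name no gene set. The authors' deposited size factor, the ratio of each nucleus to a common constant, was not used. The gene table gives a signal per genotype, the authors' mean over nuclei, which was not used, and a count of nuclei with each gene. Cluster numbers and cell types are the authors' annotation.

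Each level is the sum of a gene's UMIs in a group of nuclei over the sum of all UMIs there. Intervals are exact at 95% (Poisson for levels, conditional for ratios, Clopper-Pearson for shares) and cover counting error only. A gene counted as higher or lower past 2-fold, among genes with 20 UMIs or more over both libraries. In a ratio, 3 counts stood in for 0. The upper limit of a level with a count of 0, also in the figures, was set at 3 counts and not at the exact bound. No test was run, as each genotype had 1 library. The model the study fitted to single nuclei was not repeated.

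The members, the pathway lists (gp130 and JAK-STAT, endothelin, FGF, metallothionein and zinc, NF-kB, C/EBP, reactive glia and stress, serpina3 paralogs) and the marker lists were chosen with earlier results of these data known. All members are named. From each list, up to 6 genes with 100 UMIs or more and at least 1.5-fold apart were named, those with the largest log2 ratios, and for each member with 100 UMIs or more the 3 genes most like it. Mtf1 and the others so marked were named after their values were seen. No doublet score was used, and doublets were not called. The alternatives were TMM (edgeR 4.0.16 in R 4.3.3) and median-of-ratios scaling, 1 count per nucleus, deeper nuclei, leaving out the nucleus with the most UMIs or the mitochondrial genes, other folds and minimums, and Cre- class shares. Scripts ran in Python 3.11.15 (pandas 2.3.3, numpy 2.4.6, scipy 1.17.1), and the interval script was tested on simulated data. Gene positions are from GENCODE vM39 on GRCm39. The sources used here do not name the annotation the authors counted with.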

Additional observations from a re-analysis of the deposited data

Results flagged for a closer look

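Per gene, a column of the deposited gene table counts positive nuclei of both genotypes together. For every member it exceeds the number of positive nuclei in the 2 deposited matrices. The excess was 418 nuclei for Stat3 (2808 in the table and 2390 in the matrices), 124 for Mt1, 67 for Fgf2 and 60 for Mt2. It was 24 nuclei for Gfap, 23 for Socs3, 16 for Cebpd, 5 for Serpina3n, and 4 each for Bcl3 and Edn2. The ratio of table to matrices lay between 1.11 for Edn2 and 1.36 for Serpina3n, beside a median of 1.15 over 13574 genes found in 100 nuclei or more. The table does not divide these nuclei by genotype, so they entered no comparison.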

How the results depend on the processing

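Of 518 values recomputed under an alternative, 422 stayed within the spread set for them, 96 moved and 0 changed sign past 2-fold. The members at least 2-fold higher over all nuclei numbered 1 in every alternative but 1. Where a 95% counting interval apart from 0 replaced the 2-fold rule they numbered 2, Stat3 and Socs3, as they did in rods and cones pooled (2), beside 6247 genes higher and 3275 lower of 18410. With nuclei at a mitochondrial percent of 5 to 8, an alternative added after the data were seen, the members at least 2-fold lower numbered 1 over all nuclei and 1 in rods and cones pooled. Of all genes, 4.43% and 3.62% were lower there. The members' median over all nuclei was 0.14 and that of all genes 0.22, and in rods and cones pooled they were -0.08 and 0.23. Scaling moved the background. Over all nuclei 1077 genes were higher and 757 lower by total counts, against 877 and 960 with TMM factors, and in rods and cones pooled 1394 and 696 against 896 and 1040. The median of all genes went from 0.14 to 0.03 and from 0.21 to 0.02, and the same 4 members stayed past 2-fold. Members at least 2-fold lower over all nuclei numbered 4 rather than 3 with the Cre- class shares in both libraries and 4 at 1.5-fold, where Bcl3 joined them. In amacrine nuclei, Mt1 was past 2-fold by total counts and not with TMM factors (-0.97), 1 count per nucleus (-0.92), the nucleus with the most UMIs left out (-0.97) or a mitochondrial percent of 5 to 8 (-0.85). At 1.5-fold, 3097 genes were higher and 1904 lower over all nuclei. With no minimum beyond 3 UMIs in 1 library 1982 and 1423 were, and with 100 UMIs or more 515 and 354 were. The doublet alternative was not run, since it needs a score that the cell tables used here do not carry. Depth limits Bcl3, Serpina3n and all Müller values, and counts of 0 are given as limits. No paired analysis was possible because each genotype has 1 library.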
